A study of Oryza sativa with 2 samples.

Results

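JAZ proteins repress the transcriptional response to the plant hormone jasmonate. Members of the family were looked up in the rice gene table by the names JAZ1 to JAZ10, with or without the prefix Os, and all genes with a probe set were kept. The search found 12 genes, all of them on the array with 14 probe sets in total, out of 17905 genes that a probe set could be tied to. RNA came from leaves of OsEATB transgenic seedlings and of nontransgenic control seedlings, both of the rice cultivar indica 9311 and both at the 4-leaf stage. Each group was 1 array with material from 10 plants. All plants grew at 28 °C in half-strength Murashige and Skoog medium with 14 h of light and 10 h of darkness. The titles of both samples give normal conditions. OsEATB is a transcription factor of the ERF family. Which promoter drives the transgene, and how many independent lines were used, is not given in the labels used here, and OsEATB itself was matched to no probe set, so the targeted gene gives no check of the labels. With 1 array per group no difference has a replicate behind it, no test could be run, and precision is limited by the number of arrays.

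In plants without jasmonate, JAZ proteins bind transcription factors such as MYC2 and recruit the corepressor TOPLESS, in most cases through the adaptor NINJA. The active hormone, jasmonoyl-isoleucine, joins a JAZ protein to the F-box receptor COI1, and the repressor is then ubiquitinated and degraded. Many JAZ genes are themselves induced by jasmonate and by wounding, which restores repression, so JAZ transcripts are widely used as readouts of jasmonate signalling in leaves. The proteins belong to the larger TIFY family, named after a conserved motif in the domain that binds NINJA.

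The JAZ numbers are ambiguous in rice, because different numberings of the family are in use. With the prefix ignored, each of the 10 names belonged to at least 2 genes in the gene table, and JAZ9 belonged to 3. JAZ10, for example, is a name of both TIFY11B (LOC4331834) and TIFY3 (LOC4337240). Of the 12 genes, 10 carry a name from JAZ1 to JAZ10 without the prefix. The other 2, TIFY11C (JAZ11, LOC4331833) and TIFY11D (JAZ12, LOC4348533), entered through the Os-prefixed names OsJAZ2 and OsJAZ1. The genes are therefore called by their TIFY names below, which are unique. No protein, promoter or probe sequences were used here.

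Among the JAZ genes bright enough on the mean of both arrays, a filter chosen after seeing the data, 3 of 9 had higher signals by 2-fold or more in the transgenic leaves, against 4.11% of all genes filtered in the same way, and 0 were lower by as much, against 3.69%. TIFY11B was 6.41-fold higher, TIFY11D was 2.12-fold higher and TIFY10C was 2.07-fold higher in the transgenic leaves. TIFY9, a dim gene outside this count, was at least 2.37-fold higher, a bound that depends on the background floor given below. Like TIFY11A, TIFY9 passed a filter on either array through the transgenic array alone, so its direction was a condition of entry. Of the others, 6 differed by less than 2-fold, TIFY11A had a lower bound just under 2-fold and TIFY5 gave no ratio. Hybridisation controls are foreign transcripts added to each array's sample in set amounts. Centring on them moved the median log2 ratio of all genes to -0.92. TIFY11B was then the 1 JAZ gene 2-fold higher, against 1.31% of all genes. TIFY6A and TIFY6B were 2-fold lower, against 41.2% of all genes. Values are log2 signals as deposited, and a ratio is the transgenic minus the nontransgenic log2 signal. Signals below the 40th percentile of an array (log2 signal of 4.61 on the transgenic and 4.41 on the nontransgenic array) were raised to that level as a background floor, and a ratio with 1 side at the floor is a lower bound. Signals of different probe sets are not comparable as amounts, so each gene is compared with itself across the arrays.

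**Figure D1:**
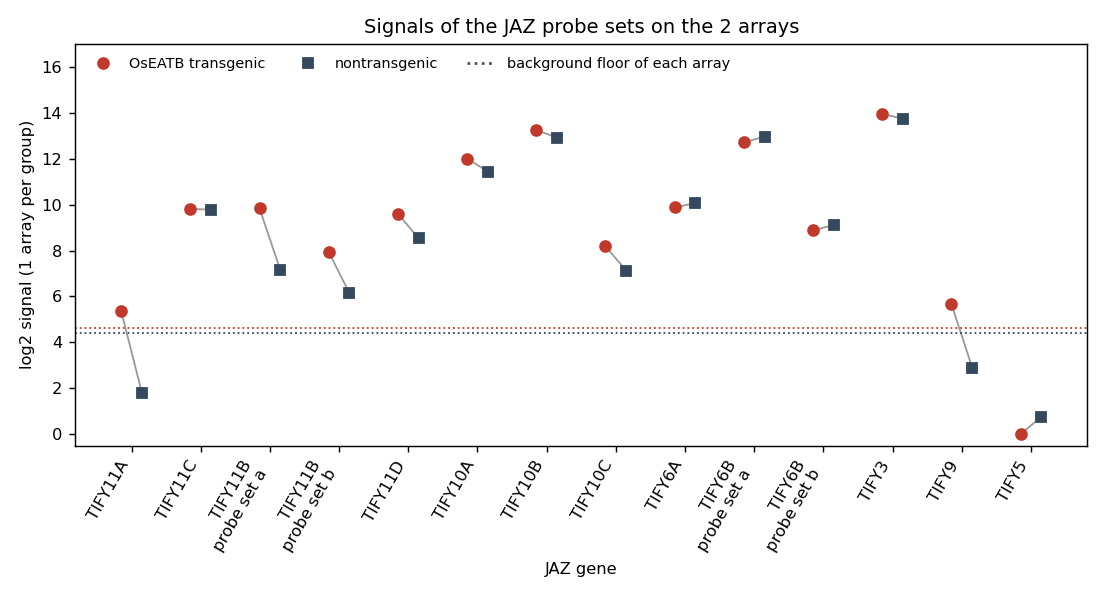
Deposited log2 signal (vertical axis) of each of the 14 JAZ probe sets on the OsEATB transgenic array (red circles, left) and the nontransgenic array (dark squares, right), with dotted lines at the background floors of 4.61 and 4.41. The steepest lines above the floors belong to the 2 probe sets of TIFY11B, and TIFY5 lies below the floors on both arrays.

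The TIFY11 genes encode short JAZ proteins, and 4 of them were members by name. TIFY11B, whose overexpression enlarges rice grains in earlier work, was read by 2 probe sets. The brighter of these had a log2 signal of 9.84 on the transgenic array and 7.16 on the nontransgenic array, or linear signals of 915 and 143. That is a log2 ratio of 2.68. The other had 7.93 on the transgenic array and 6.14 on the nontransgenic array, a log2 ratio of 1.79 or 3.46-fold. Both probe sets were thus over 2-fold higher in the transgenic leaves, but they differed in the size of the ratio. The brighter one carries the suffix _s_at, which marks probes that may also hybridise to related transcripts. What part other transcripts have in its signal was not tested.

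TIFY11D had a log2 signal of 9.61 on the transgenic array and 8.53 on the nontransgenic array, with linear signals of 781 and 369. Its log2 ratio of 1.08 lay just past the 2-fold threshold. TIFY11C was nearly level, at 9.81 on the transgenic array and 9.78 on the nontransgenic array, a log2 ratio of 0.04. TIFY11A (JAZ9, LOC4331832), which acts in the response of rice to salt stress, reached 5.37 on the transgenic array, against 1.80 on the nontransgenic array. The second value lies below the floor, so that TIFY11A was at least 1.94-fold higher, and it was 11.8-fold higher if the dim signal is taken as it stands.

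The TIFY11 genes are grouped in the genome. In the gene table of assembly ASM3414082v1, TIFY11A, TIFY11C and TIFY11B follow one another on chromosome 3 with 0 annotated genes between them. TIFY11B and TIFY11C therefore had ratios of 2.68 and 0.04 as direct neighbours. TIFY11D lies on chromosome 10, with 3 annotated genes between it and TIFY11E (JAZ13, LOC4348531), which the names JAZ1 to JAZ10 do not cover. TIFY11E was dim on both arrays, at 6.19 on the transgenic array and 5.84 on the nontransgenic array.

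Among the TIFY10 genes, TIFY10C (JAZ8, LOC4347164) differed most. Its product is a jasmonate-regulated repressor studied in resistance of rice to bacterial blight. It had a log2 signal of 8.18 on the transgenic array and 7.12 on the nontransgenic array, with linear signals of 290 and 140 and a log2 ratio of 1.05. TIFY10A (JAZ6, LOC4333065) stood at 12.01 on the transgenic array and 11.44 on the nontransgenic array, 1.48-fold higher. Its only probe set carries the suffix _s_at. TIFY10B (JAZ7, LOC4343899) stood at 13.25 on the transgenic array and 12.92 on the nontransgenic array, 1.25-fold higher. All 3 TIFY10 genes had higher signals in the transgenic leaves as deposited, whereas after centring on the hybridisation controls TIFY10A and TIFY10B had log2 ratios of -0.34 and -0.58 and TIFY10C had 0.15.

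The TIFY6 genes were the members with ratios below 0. TIFY6A (JAZ3, LOC4345625) had a log2 signal of 9.87 on the transgenic array and 10.07 on the nontransgenic array, a log2 ratio of -0.20. TIFY6B (JAZ4, LOC4347000) was read by 2 probe sets that gave nearly the same ratio at different brightness. The brighter one carries the suffix _x_at, and what part other transcripts have in its signal was not tested. The brighter stood at 12.71 on the transgenic and 12.97 on the nontransgenic array, a log2 ratio of -0.26, and the dimmer stood at 8.88 on the transgenic and 9.11 on the nontransgenic array, a log2 ratio of -0.24. These ratios are small against the 2-fold threshold.

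The remaining members belong to separate branches of the family. TIFY3 (JAZ1), also known as EG2 for its part in rice spikelet development, was bright on both arrays, at 13.95 on the transgenic array and 13.74 on the nontransgenic array, a log2 ratio of 0.21. TIFY9 (JAZ5, LOC4335698) had 5.66 on the transgenic array and 2.89 on the nontransgenic array. The second value is below the floor, which gives the bound of 2.37-fold, or a log2 ratio of at least 1.24. TIFY5 (JAZ2, LOC4342421) lay below the floor on both arrays, at a log2 signal listed as 0 on the transgenic array and 0.76 on the nontransgenic array, and has no ratio.

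A level filter kept genes that reached the median log2 signal of an array (5.32 on the transgenic, 5.16 on the nontransgenic array) on at least 1 array, and 15192 genes passed. All JAZ genes except TIFY5 passed, 11 in number. TIFY9 and TIFY11A passed through the transgenic array alone, so that a higher signal in the transgenic leaves was a condition of their entry. Over all genes that passed, 6.07% were higher by 2-fold or more in the transgenic leaves, and 4.44% were lower by as much. Under this filter 4 of 11 JAZ genes were 2-fold higher and 0 were 2-fold lower, but TIFY9 is among the 4 and both genes are among the 11, so nothing is read from this count. With the filter set on the mean of both arrays, an alternative chosen after seeing the data that a bright signal on 1 array alone does not satisfy as easily, 3 of 9 JAZ genes were 2-fold higher, against 4.11% of 14337 genes, and 0 were 2-fold lower, against 3.69%. These 3 were TIFY11B, TIFY11D and TIFY10C. The median log2 ratio of the JAZ genes was 0.57 with the bounds taken as they stand, and 0.32 with the filter on the mean, against -0.01 and -0.02 for all genes. With the filter on the mean, 7 JAZ ratios were above 0 and 2 below, beside the median of -0.02 for all genes. With the first filter 9 were above 0 and 2 below, but the 9 include TIFY9 and TIFY11A, whose direction was a condition of entry. Over all 15192 genes of that filter, 7384 ratios were above 0 and 7808 below. After centring on the hybridisation controls 5 JAZ ratios were above 0 and 6 below, while the median of all genes was -0.92.

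**Figure D2:**
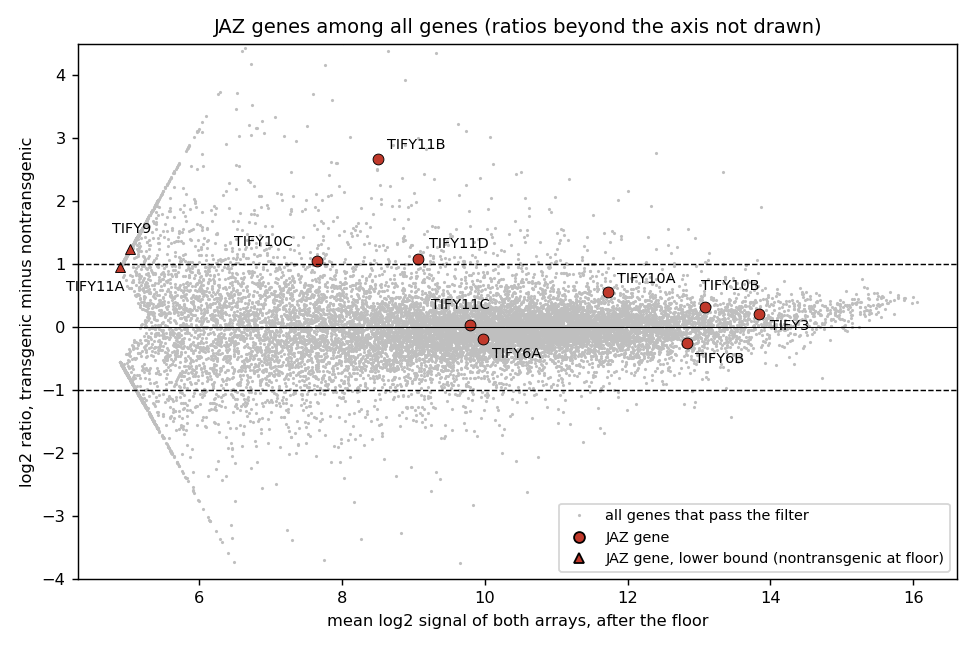
Log2 ratio of the transgenic over the nontransgenic array (vertical axis) against the mean log2 signal of both arrays after the floor (horizontal axis), for all 15192 genes that passed the filter (grey) and the 11 JAZ genes among them (red). TIFY11B stands at 2.68 among genes of middle brightness, TIFY11D and TIFY10C lie at the dashed 2-fold line, and the triangles of TIFY9 and TIFY11A are lower bounds.

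Large ratios were far more frequent among dim genes, so all genes were divided by mean signal into 4 equal groups of 3798, and each JAZ gene was set beside the genes of its own brightness group. TIFY11B, TIFY11D and TIFY10C fell in the group next to the dimmest, where 4.53% of genes were 2-fold higher. In that group 0.606% of genes had a ratio as high as that of TIFY11B, 3.79% had one as high as that of TIFY11D, and 3.98% had one as high as that of TIFY10C. TIFY9 and TIFY11A fell in the dimmest group, where 16.9% of genes were 2-fold higher, and 11.2% of genes there had a ratio as high as the bound of TIFY9. TIFY10A fell in the brightest group, in which 4.48% of genes had a ratio as high as its 0.57. The remaining members had ratios that at least 14.9% of their group matched in the same direction.

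Probe sets that read the same gene give a further measure of scatter, though they share the arrays and the RNA and are no replicates of the plants. The difference in log2 ratio was taken between the brightest and the next probe set of a gene. Its SD was divided by the square root of the number of probe sets compared, to give the scatter of a single probe set. This was 0.77 in the dimmest of 3 equal groups of 2414 such genes, 0.55 in the middle group and 0.32 in the bright group. The difference between the probe sets of a gene scatters more widely than that. TIFY10C, with a ratio of 1.05, lies in the dim group. TIFY11D, with 1.08, and TIFY11B, with 2.68, lie in the middle group. The ratios of TIFY3, TIFY6A and TIFY6B were smaller than the 0.32 of the bright group, that of TIFY10B was about as large, and that of TIFY10A was larger. This scatter leaves out differences between plants and between hybridisations, which these arrays do not measure.

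TIFY11B kept its 2-fold ratio in all 11 alternative ways of processing planned for it, at log2 ratios of 1.77 to 2.75. TIFY11D kept it in 10 of 11, and TIFY10C in 8 of the 10 in which it had a value. Moving the floor or the filter could not alter a ratio with both signals well above the floor. TIFY11D and TIFY10C have 1 probe set each, so the settings on probe sets could not alter theirs either. These counts are therefore no measure of stability. Centred on the hybridisation controls, TIFY11D had 0.18 and TIFY10C had 0.15. TIFY9 was 2-fold higher in 7 of 10, with a log2 ratio of 0.50 when the floor was raised to the median of the array.

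**Figure D3:**
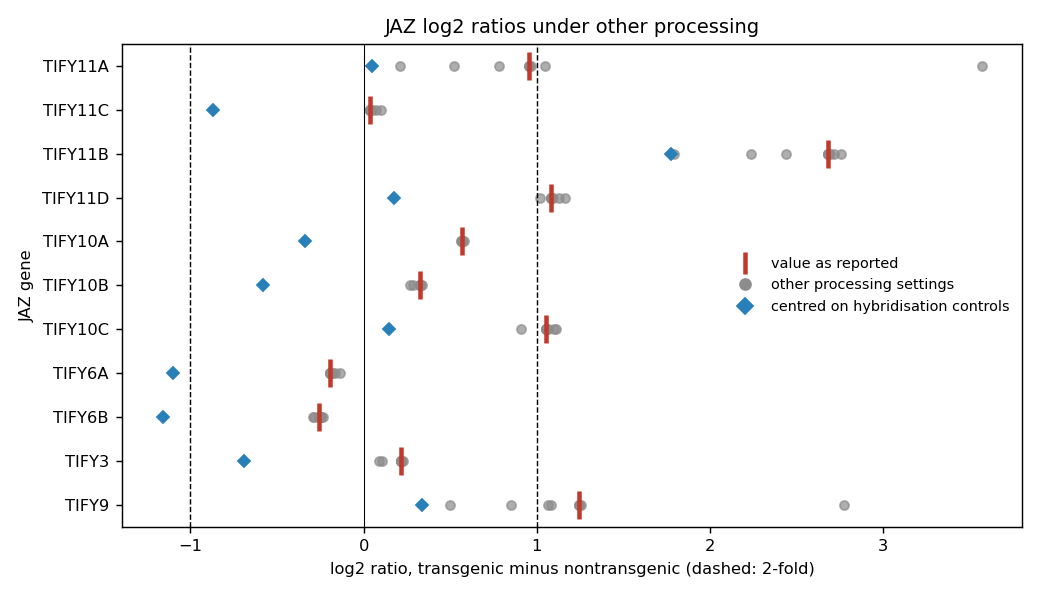
Log2 ratio (horizontal axis) of each of the 11 JAZ genes with a ratio, as reported (red bars), under other processing settings (grey circles) and centred on hybridisation controls (blue diamonds), with dashed lines at 2-fold. All values of TIFY11B lie past 2-fold, and the values furthest right for TIFY11A (3.57) and TIFY9 (2.77) are those without a floor.

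The other parts of the jasmonate pathway were read from 5 gene lists matched by name. Among all genes that passed the filter, 6.07% were 2-fold higher and 4.44% were 2-fold lower. Of 5 further TIFY genes on the array 4 passed the filter, and 0 of them were 2-fold higher or lower, which is near those shares. TIFY2B (LOC4341953), a GATA factor with a TIFY motif, came nearest, at 10.95 on the transgenic array and 9.99 on the nontransgenic array, a log2 ratio of 0.96. The probe set of TIFY2B carries the suffix _s_at. TIFY11E had 0.35, TIFY2A (LOC4328300) had 0.44 and TIFY1A (LOC4333738) had -0.03.

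The products of the receptor and corepressor genes act directly on or with JAZ proteins. All 6 genes passed the filter, 0 were 2-fold higher or lower, and their median log2 ratio was -0.16. All 6 were bright, and such ratios are rare among bright genes. In the brightest of the 4 brightness groups, 1.03% of all genes were 2-fold higher and 0.474% lower, so little can be read from 0 of 6. The receptor gene COI1A (LOC4324818) stood at 12.25 on the transgenic array and 12.40 on the nontransgenic array. COI1B (LOC4338955) stood at 12.83 on the transgenic array and 13.29 on the nontransgenic array, a log2 ratio of -0.47, and COI2 (LOC4332349) at 11.89 and 11.77, a log2 ratio of 0.13. The adaptor gene NINJA1 stood at 11.05 on the transgenic array and 11.10 on the nontransgenic array, and the TOPLESS-related gene TPR3 at 11.89 and 12.09. The probe set of NINJA1 carries the suffix _x_at. Centred on the hybridisation controls, 4 of these 6 genes were 2-fold lower. So were 41.2% of all genes under that centring, so little can be read from this count.

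Of the transcription factors in the lists, 2 were found by name and neither was 2-fold different. Both were 2-fold lower after centring on the hybridisation controls, as were 41.2% of all genes. As 6.07% of all genes were 2-fold higher and 4.44% lower before that centring, little can be read from 0 of 2. BHLH148 (LOC4334060), whose product binds a JAZ protein and acts in drought tolerance of rice, had a log2 ratio of -0.31. JAMYB (LOC4351131), a MYB factor induced by jasmonate, had -0.27, at 7.90 on the transgenic array and 8.16 on the nontransgenic array. MYC2 was matched under no name and is not analysed here.

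Among genes matched by name for jasmonate synthesis, 4 of 15 that passed were 2-fold higher and 0 were 2-fold lower. The list median was 0.01, and among all genes 6.07% were higher and 4.44% lower. After centring on the hybridisation controls 3 of the synthesis genes were higher and 6 lower, against 1.31% and 41.2% of all genes. With the filter at the 75th percentile 1 was higher, against 2.81% of all genes. CM-LOX2, among the 4, had 4.95 on the nontransgenic array, under its median of 5.16, and passed through the transgenic array alone. So did LOC4340484 (OPR6), at 5.36 on the transgenic and 5.07 on the nontransgenic array, and AOS3 below. Nothing is therefore read from the count of 4. The 4 were 2 lipoxygenase genes, CM-LOX1 and CM-LOX2, with log2 ratios of 2.24 and 1.97, and the oxophytodienoate reductase genes LOC4340490 (OPR1), with 2.11, and LOC4329684 (OPR8), with 1.23. OPR8 stood at 7.93 on the transgenic array and 6.71 on the nontransgenic array. The allene oxide synthase genes AOS1 (LOC4334233) and AOS2 (LOC4332121), which act at the committed step, had ratios of 0.01 and -0.06. A further gene of this kind, AOS3 (LOC4328742), had 5.32 on the transgenic array and 1.11 on the nontransgenic array, a value under the floor. It was at least 1.87-fold higher, and passed the filter through the transgenic array alone. JAR1 (LOC4339756), which joins jasmonate to isoleucine, stood at 10.36 on the transgenic array and 10.78 on the nontransgenic array, a ratio of -0.43. The oxophytodienoate reductase gene LOC4345762 (OPR7), which serves jasmonate synthesis in rice, stood at 11.32 on the transgenic array and 11.75 on the nontransgenic array, a ratio of -0.43. Whether the products of the other genes on this list, such as OPR1 and OPR8, take part in jasmonate synthesis was not tested. In the list of hormone turnover, 1 gene was found, ILL6 (LOC4341907) of the amidohydrolase family, and it was 2.92-fold lower, at 6.44 on the transgenic array and 7.98 on the nontransgenic array.

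**Figure D4:**
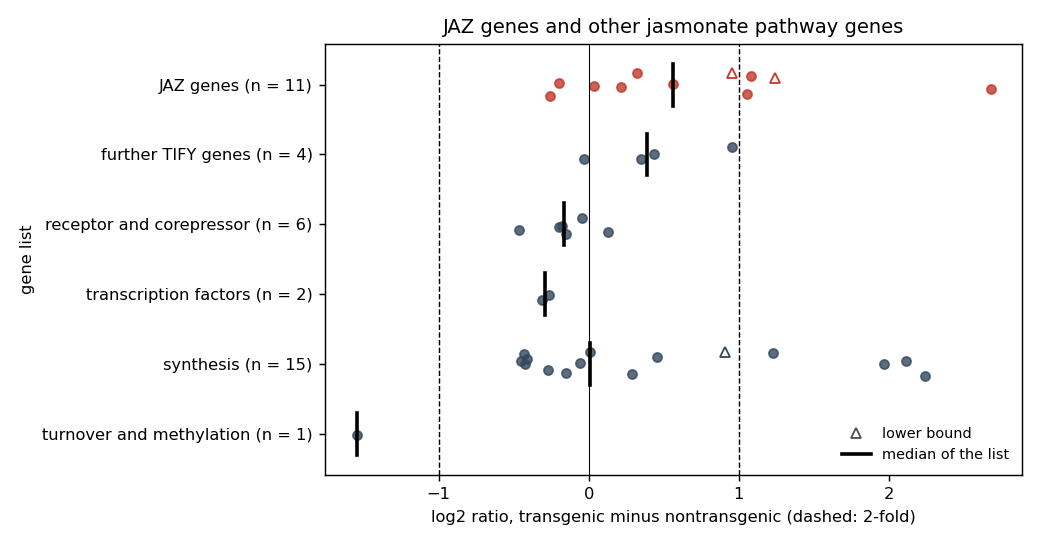
Log2 ratios of the transgenic over the nontransgenic array (horizontal axis) for the JAZ genes (red) and the 5 further lists of jasmonate pathway genes (dark), 1 point per gene that passed the filter, with black bars at the medians, open triangles at lower bounds and dashed lines at 2-fold. Among the JAZ and synthesis genes past the upper line, TIFY9 and CM-LOX2 passed the filter through the transgenic array alone, so nothing is read from their number. All 6 receptor and corepressor genes lie between the lines, as do most genes as bright.

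Markers of leaf tissue were bright on both arrays. Of 7 leaf marker genes 6 were above the floor, between log2 signals of 13.79 and 16.26 on the transgenic array and between 14.00 and 15.86 on the nontransgenic array, and RBCS1 was below it on both arrays. Below the floor were 3 of 5 seed, 1 of 2 root and 2 of 2 pollen markers on the transgenic array, and 4 of 5, 1 of 2 and 0 of 2 on the nontransgenic array. The brightest of these markers were the glutelin gene GLUA2 (LOC4348563), at 11.23 on the transgenic and 10.96 on the nontransgenic array, and the silicon transporter gene Lsi1 (LOC4330713), at 9.57 on the transgenic and 8.62 on the nontransgenic array. The summed linear signal of the leaf markers was 338035 on the transgenic array and 256941 on the nontransgenic array. That of the seed markers was 2469 and 2022, that of the root markers was 759 and 395, and that of the pollen markers was 4.57 and 73.8, in the same order of arrays. The pollen sum on the transgenic array holds only signals below the floor, and the root sums come almost wholly from Lsi1. As signals of different probe sets are not comparable as amounts, the sums give no share of a tissue. The part of differences in these markers in the JAZ ratios was not tested. In bulk leaf RNA, more cells that express a gene and more RNA per cell cannot be told apart.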

How the data were processed

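The authors deposited 1 table of log2 signals for 2 arrays. Per the submitters' processing notes, MAS5 was used; neither its version nor its scaling target is given in the sources used here. That the scale is log2 follows from the values: unlogged, the deposited signals had a mean of 500.1 on both arrays after 2% was trimmed at each end, so overall brightness had been equalised. Both sample columns were mapped, leaving 0 unmapped.

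Control probe sets (187 of 57381) were set apart. Of the rest, 22436 had 1 gene in the platform's gene table, 95 had several and 34663 had none. Genes were named through the rice reference ASM3414082v1, used for names and gene order. A gene was represented by its brightest passing probe set, with a threshold of 2-fold. Named genes were all JAZ members, list genes with a 2-fold ratio, COI1, NINJA and MYC2 genes, and the 3 genes nearest in signal to the member with the largest ratio, which are not given because signals of different probe sets are not comparable. Others are examples chosen after their values were seen. In the lists, 2 symbols (ASP1, DAD1) belonged to other genes and were left out. Members and lists were chosen with earlier results of these data known. Python 3.11.15, pandas 2.3.3 and statsmodels 0.14.6 were used, and the counting was tested on simulated data.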

Additional observations from a re-analysis of the deposited data

How the results depend on the processing

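No paired analysis was possible because each group is 1 array. Of 12 alternatives, 11 were planned and 1 was added after seeing the data. Hybridisation controls (27 probe sets) had a median log2 ratio of 0.90. Centring on them left 1 JAZ gene 2-fold higher and 2 lower, a JAZ median of -0.34, and 1.31% of all genes 2-fold higher against 41.2% lower. Relative to the median of all genes, the JAZ genes keep their places under this constant shift. With the level filter at the 75th percentile, 8 JAZ genes remained with a ratio, 2 of them 2-fold higher, TIFY11B and TIFY11D, and 2.81% of all genes were higher and 2.06% lower; fewer dim genes are tested there. Under the other alternatives 3 to 5 JAZ genes were 2-fold higher and 0 lower. TIFY11A passed 2-fold without a floor (3.57) and with a pseudocount of 32 in place of the floor (1.05), and TIFY10C then had 0.91. TIFY9 had 0.85 after lowess centring. Without probe sets marked _s_at or _x_at, TIFY11B had 1.79 and TIFY10A had no value. Detection calls were not available, so the floor stands in for background, and TIFY5, TIFY9 and TIFY11A are limited by it.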
